A study of Mus musculus with 6 samples.

Results

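The CC chemokine genes Ccl2, Ccl3, Ccl4, Ccl5, Ccl6, Ccl7, Ccl8, Ccl9, Ccl12 and Ccl24 were examined in 2 macrophage subsets of injured mouse muscle. Each gene was taken from a probe set, the group of probes that measures 1 transcript, annotated with that gene symbol alone. Where a symbol had several such probe sets the one with the highest mean over all 6 arrays would have been used, but each of the 10 genes had 1. They are 10 of 19938 genes measured in this way. The mice were of strain B6.129P2-Lyzstm1(cre)Ifo/J, which carries Cre recombinase at the lysozyme locus, active in myeloid cells. The labels name no floxed allele, and both subsets share this background. They also share the injury, an injection of cardiotoxin into the tibialis anterior muscle, and the time of collection, day 2. One group was the Ly6C+ F4/80low fraction and the other the Ly6C- F4/80high fraction of bead-selected CD45+ cells, each from mice 1, 2 and 3, with 1 array per fraction and mouse. The labels give no age, and neither uninjured muscle nor unsorted cells were analysed here. The comparison asks how the fractions differ within one regenerating muscle. A sort separates cells by antigen, so each array reads a mixture, and fewer cells of a type and less RNA per cell cannot be told apart.

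Chemokines are small secreted proteins that direct the movement of leukocytes along a gradient, and those of the CC class have adjacent cysteines near the start of the mature protein. They act through G-protein-coupled receptors, and one ligand often binds several receptors. In injured muscle, macrophages are a main source of CC chemokines, and the pull of Ccl2 and its relatives on Ccr2 brings monocytes from the blood into the tissue.

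Of the 10 genes 6 differed between the fractions at a limma adjusted p under 0.05, the threshold for every call here, and 4 did not. Ccl8 was the 1 gene with a higher level in the Ly6C- F4/80high cells, and Ccl2, Ccl5, Ccl6, Ccl9 and Ccl24 were the 5 with a lower one. Among all genes 33.8% were called, 19.5% as higher and 14.3% as lower. The 10 genes lay above background on all 6 arrays, and among the 11802 genes whose means did so in both fractions 44.6% were called, 29.6% as higher and 15% as lower. Called differences of at least 2-fold were seen for Ccl8 and Ccl24, that is 2 of 10, against 2.92% of all genes. The arrays of the fractions did not overlap for 6 of the 10 genes, against 48.1% of all genes. The median difference of the 10 genes was -0.21, against -0.06 over all genes and 0.04 over those above background. Differences are given throughout as the Ly6C- F4/80high level less the Ly6C+ F4/80low level in log2 units, with n = 3 arrays on each side. Background was taken as 5.44, the level under which 95% of olfactory and vomeronasal receptor genes lay.

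**Figure D1:**
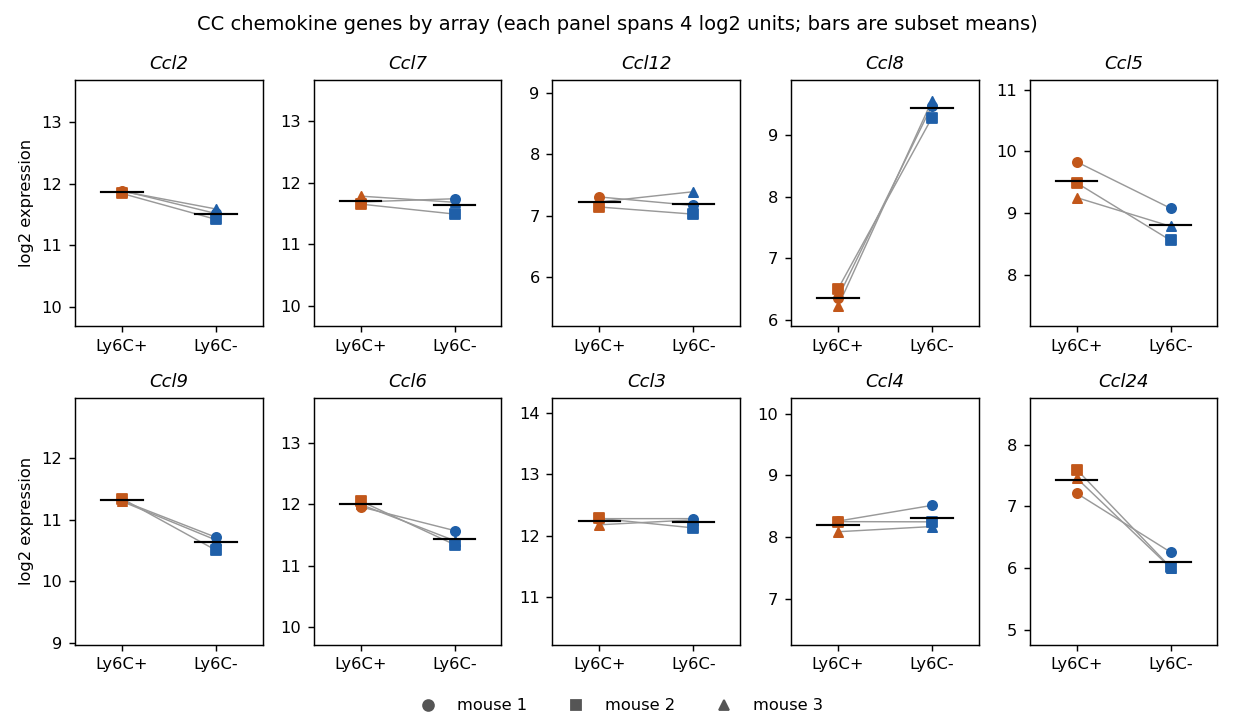
Log2 expression of the 10 CC chemokine genes on each of the 6 arrays, with one panel per gene, a point per mouse and a bar at the mean of each fraction. Ccl8 lay at 9.28 or above in every Ly6C- F4/80high array and at 6.50 or below in every other array, whereas the arrays of Ccl3, Ccl4, Ccl7 and Ccl12 overlapped.

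All of these genes but Ccl24, on chromosome 5, lie on chromosome 11, and neighbours on chromosome 11 did not share one result. In the RefSeq annotation of assembly GRCm38.p6 the genes Ccl2, Ccl7, Ccl11, Ccl12, Ccl8 and Ccl1 follow each other with 0 other coding genes between them. After 25 other coding genes come Ccl5, Ccl9, Ccl6, Ccl3 and Ccl4, again with 0 coding genes in between. Bases upstream of the start were found for 5 of the 10 genes, Ccl3, Ccl6, Ccl8, Ccl9 and Ccl12. Those of Ccl12 and Ccl8 are shown because these adjacent genes differed in result, and those of Ccl9 and Ccl6 because these adjacent genes were both lower. Each line gives the 250 bases before the annotated start, 5′ to 3′ on the strand of the gene, from RefSeq GRCm38.p6. Their places are chr11:82101595-82101844 (plus strand) for Ccl12, chr11:82114935-82115184 (plus strand) for Ccl8, chr11:83578637-83578886 (minus strand) for Ccl9 and chr11:83593088-83593337 (minus strand) for Ccl6. Capitals mark matches on either strand to any of 6 searched motifs.
Ccl12: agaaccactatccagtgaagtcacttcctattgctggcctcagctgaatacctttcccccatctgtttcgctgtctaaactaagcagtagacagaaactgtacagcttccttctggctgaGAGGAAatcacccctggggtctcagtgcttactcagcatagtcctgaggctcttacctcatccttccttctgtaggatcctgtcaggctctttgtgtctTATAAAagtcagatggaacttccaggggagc
Ccl8: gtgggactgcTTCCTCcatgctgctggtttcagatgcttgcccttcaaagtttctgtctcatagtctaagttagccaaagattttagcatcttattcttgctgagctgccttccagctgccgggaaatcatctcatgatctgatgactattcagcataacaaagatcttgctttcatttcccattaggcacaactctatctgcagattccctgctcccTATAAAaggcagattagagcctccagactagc
Ccl9: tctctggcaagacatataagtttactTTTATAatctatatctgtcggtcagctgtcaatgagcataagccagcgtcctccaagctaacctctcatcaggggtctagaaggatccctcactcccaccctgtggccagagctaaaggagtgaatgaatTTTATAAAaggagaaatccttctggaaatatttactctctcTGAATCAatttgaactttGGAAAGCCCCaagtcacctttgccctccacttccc
Ccl6: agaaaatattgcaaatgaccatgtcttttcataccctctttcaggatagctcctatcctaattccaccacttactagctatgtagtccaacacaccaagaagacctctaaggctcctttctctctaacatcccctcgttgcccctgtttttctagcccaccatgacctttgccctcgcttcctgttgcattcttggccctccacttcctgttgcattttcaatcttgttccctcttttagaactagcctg
The motifs were TATAAA of the TATA box, TGANTCA of AP-1, TTCNNNGAA of STAT factors, GAGGAA of PU.1, the core of the interferon-stimulated response element and the NF-kB consensus. Ccl8 and Ccl12 both held TATAAA, with its first base 32 bases before the start in Ccl8 and 31 in Ccl12, and both held a GAGGAA match, at 240 bases on the opposite strand in Ccl8 and at 130 in Ccl12. The window of Ccl9 held TGAATCA at 53 bases and an NF-kB consensus match at 35 bases on the opposite strand. It also held TATAAA at 92 bases, which overlapped a match on the opposite strand at 94, and a further one on that strand at 224. No match was found in the window of Ccl6, and that of Ccl3 held GAGGAA at 33 bases on the opposite strand. Among 32851 windows of this length 12.4% held TATAAA, 6.75% TGANTCA, 7.02% TTCNNNGAA, 2.98% the core of the interferon element, 23.3% GAGGAA and 3.90% the NF-kB consensus. A match describes letters in the window and shows no binding. In global alignments the windows of Ccl12 and Ccl8 were identical at 161 of 280 aligned positions, 57.5%, and those of Ccl9 and Ccl6 at 146 of 292, while the other 8 pairs had identities between 48.1% and 54.2%.

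Ccl2, Ccl7 and Ccl12 encode the chemokines that attract monocytes through Ccr2, and 1 of the 3 was called. Ccl2 read 11.89, 11.84 and 11.88 in the Ly6C+ F4/80low cells of mice 1, 2 and 3. In the Ly6C- F4/80high cells of the same mice it read 11.52, 11.42 and 11.59. The fractions did not overlap, so each mouse had its lower value in the Ly6C- F4/80high cells. The means were 11.87 ± 0.02 (SD, n = 3) and 11.51 ± 0.08 (SD, n = 3), a difference of -0.36 (SE 0.08) or 1.28-fold lower (limma adjusted p = 0.00504). Ccl7, next to Ccl2 on the chromosome, read 11.69, 11.65 and 11.78 against 11.74, 11.49 and 11.68. These ranges overlapped, and mouse 1 differed in direction from the others, by 0.05 against -0.16 and -0.10. The difference of Ccl7 was -0.07 (SE 0.09, 95% interval -0.27 to 0.13, limma adjusted p = 0.559). Ccl12 read 7.31, 7.14 and 7.23 in the Ly6C+ F4/80low cells and 7.17, 7.03 and 7.39 in the others. Its lowest and its highest value both came from Ly6C- F4/80high arrays. The difference of Ccl12 was -0.03 (SE 0.10, 95% interval -0.26 to 0.20, limma adjusted p = 0.841).

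Ccl8 belongs to the same monocyte chemoattractant family by sequence and position, and in mice its protein is known as a ligand of Ccr8. It read 6.36, 6.50 and 6.22 in the Ly6C+ F4/80low cells of mice 1, 2 and 3. It read 9.47, 9.28 and 9.55 in their Ly6C- F4/80high cells. All values of one fraction lay far from all values of the other, with within-mouse differences of 3.12, 2.78 and 3.34. The means were 6.36 ± 0.14 (SD, n = 3) and 9.44 ± 0.14 (SD, n = 3), a difference of 3.08 (SE 0.10, 95% interval 2.85 to 3.30) or 8.44-fold higher (limma adjusted p = 5.77e-08). This was the sixth highest difference of all genes. Its neighbour Ccl12 lay on the other side of the call on the same arrays, so the ratio of the pair was also taken within each array. The log2 ratio of Ccl8 to Ccl12 averaged -0.87 ± 0.20 (SD, n = 3) and 2.24 ± 0.07 (SD, n = 3), and its difference within a mouse lay between 2.89 and 3.25. The difference was 3.11 for that ratio, 3.15 for Ccl8 over Ccl7 and 3.44 for Ccl8 over Ccl2. Each gave a two-sided exact permutation p of 0.1, the smallest that 3 against 3 arrays can give, so no ratio could reach the threshold. A ratio within an array shows unequal change of 2 genes and sets no level of one against the other. Genes of this family resemble each other in sequence, and whether a probe set also reads a relative was not tested.

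Ccl3 and Ccl4 encode macrophage inflammatory proteins, of which Ccl3 acts on Ccr1, and neither was called. Ccl3 read 12.28, 12.28 and 12.18 in the Ly6C+ F4/80low cells and 12.28, 12.13 and 12.26 in the Ly6C- F4/80high cells. Its difference was -0.02 (SE 0.08, 95% interval -0.20 to 0.15, limma adjusted p = 0.827). The signs of the mice were mixed, at 0.00, -0.15 and 0.08. Ccl4 read 8.26, 8.25 and 8.09 against 8.51, 8.25 and 8.17, and the arrays overlapped here too. Its difference was 0.11 (SE 0.10, 95% interval -0.12 to 0.34, limma adjusted p = 0.416). The sign of this difference turned with the scaling, to -0.04 after quantile normalization and -0.03 after cyclic loess. Over the 4 genes without a call the 95% intervals ran from -0.27 to 0.34, which leaves room for differences up to those bounds.

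Ccl6 and Ccl9 encode chemokines of rodents that act through Ccr1, and both had lower levels in the Ly6C- F4/80high fraction. Ccl6 read 11.96, 12.05 and 11.996 in the Ly6C+ F4/80low cells and 11.57, 11.34 and 11.41 in the others. Ccl9 read 11.31, 11.34 and 11.30 against 10.71, 10.50 and 10.67. Neither gene had overlapping arrays, and mouse 2 had the largest drop in both. Ccl6 differed by -0.56 (SE 0.08), 1.47-fold lower (limma adjusted p = 0.00061). Ccl9 differed by -0.69 (SE 0.08), 1.61-fold lower (limma adjusted p = 0.000138). Both lie beside Ccl3, which was not called, and their log2 ratio to Ccl3 within an array differed by -0.54 for Ccl6 and by -0.66 for Ccl9. The exact permutation p of each ratio was again 0.1, the smallest possible.

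Ccl5, a chemokine of T cells and macrophages that acts on Ccr1 and Ccr3, was also lower. It read 9.83, 9.49 and 9.25 in the Ly6C+ F4/80low cells of mice 1, 2 and 3. It read 9.08, 8.56 and 8.78 in the Ly6C- F4/80high cells. The fractions did not overlap, but the lowest Ly6C+ F4/80low array, of mouse 3, was only just above the highest array of the other fraction, of mouse 1. The means were 9.52 ± 0.29 (SD, n = 3) and 8.81 ± 0.26 (SD, n = 3), and the difference was -0.72 (SE 0.16), 1.64-fold lower (limma adjusted p = 0.00646). Its SDs compare with a median SD over all genes of 0.10 in either fraction. The log2 ratio of Ccl5 to Ccl4 within an array differed by -0.83, between -1.01 and -0.55 in the mice, with an exact permutation p of 0.1. T and NK cells also make Ccl5. Of 10 measured markers of these cells 2 were called lower, Cd3e at -0.45 (SE 0.09, limma adjusted p = 0.00287) and Gzmb, whose means were under background in both fractions. Both means were under background for 7 of the 10, Cd3d, Cd3g, Cd4 and Ncr1 among them. The summed level of the 10 markers on the linear scale ran from 319 to 352 on the Ly6C+ F4/80low arrays and from 274 to 296 on the others, and its part in the result for Ccl5 was not tested.

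Ccl24, an eotaxin that attracts eosinophils through Ccr3, had the largest difference toward the Ly6C+ F4/80low cells among the 10 genes. It read 7.21, 7.60 and 7.46 in those cells of mice 1, 2 and 3. In the Ly6C- F4/80high cells it read 6.26, 6.01 and 6.002. The fractions did not overlap, and mouse 1 had the smallest difference, -0.96 against -1.59 in mouse 2 and -1.46 in mouse 3. The means were 7.42 ± 0.20 (SD, n = 3) and 6.09 ± 0.15 (SD, n = 3), a difference of -1.33 (SE 0.11) or 2.52-fold lower (limma adjusted p = 1.78e-05). In the order of all genes this was the 105th lowest difference. Its chromosomal neighbour Ccl26 was under background on all 6 arrays.

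**Figure D2:**
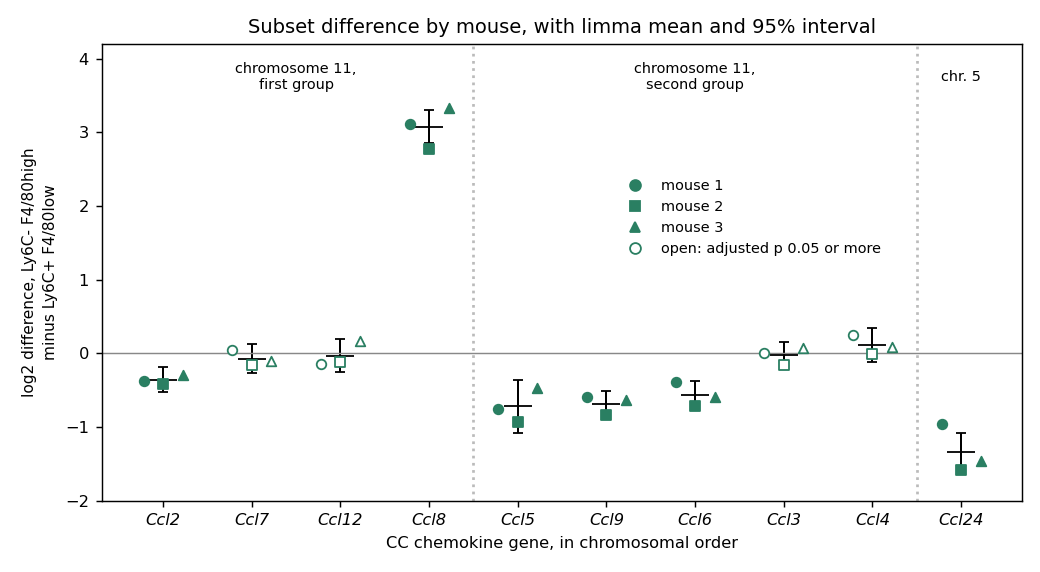
Log2 difference of each CC chemokine gene within mice 1, 2 and 3, with the limma mean as a horizontal bar and its 95% interval as the vertical bar, genes in chromosomal order. Ccl8 differed by 2.78 to 3.34 in the mice while its neighbour Ccl12 lay between -0.14 and 0.17, and open symbols mark the 4 genes without a call.

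The 6 called genes were also the 6 without overlapping arrays, so the same sign in each of the 3 mice followed from that. Of the 4 other genes 0 had the same sign in all mice. The calls and directions of the 6 called genes held in all 19 alternative analyses. Among these were other scalings, filters, the mouse as a block and the loss of any one array or mouse. The filters, the averaging of probe sets, the mouse as block or random effect and the trended robust prior left the differences unchanged. Those settings could alter only the SE and the p of these genes. Over these the difference of Ccl8 ran from 2.93 to 3.23 and that of Ccl24 from -1.52 to -1.21. Ccl9 ran from -0.73 to -0.61, Ccl6 from -0.65 to -0.49, Ccl5 from -0.85 to -0.56 and Ccl2 from -0.40 to -0.32. The calls of Ccl2 and Ccl5 came nearest to the threshold, with limma adjusted p reaching 0.0431 and 0.0447.

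**Figure D3:**
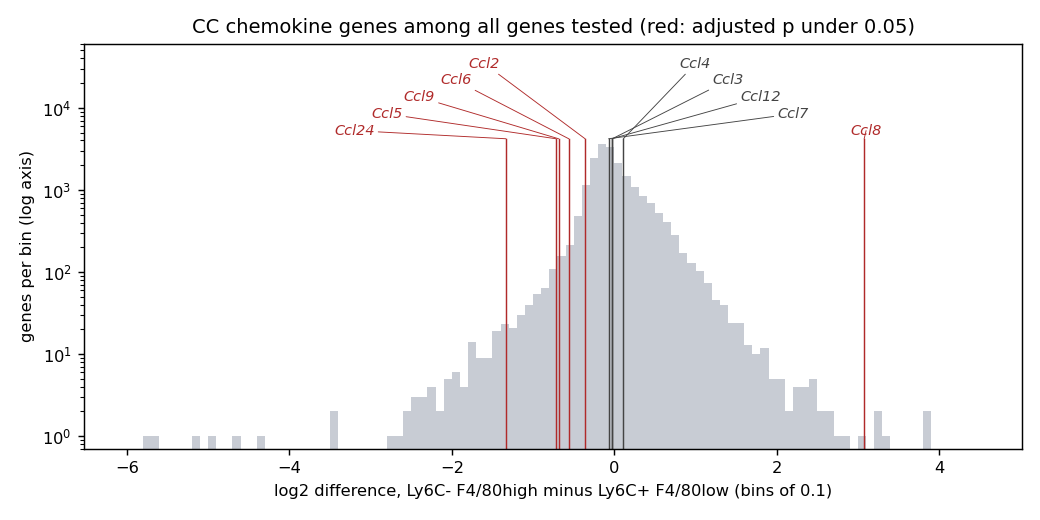
Number of genes per bin of log2 difference (log axis) for the 19938 genes, with the 10 CC chemokine genes as vertical lines, red where the limma adjusted p was under 0.05. Ccl8 stands at 3.08 in the sparse upper tail, Ccl24 at -1.33 in the lower one, and the 4 genes without a call fall in the central peak.

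Values of the 10 genes deviated together within the Ly6C- F4/80high fraction, a pattern noticed after the values were seen. On the Ly6C- F4/80high array of mouse 2 all 10 lay below their mean of that fraction, by 0.06 to 0.25, with a median deviation of -0.11. The median deviation of all genes on that array was 0.03. The array was the lowest of its fraction for 8 of the 10 genes, against 23.3% of all genes and 27.0% of those above background. The most negative difference came from mouse 2 for 9 of the 10 genes, against 25.4% of all genes, the other being Ccl12 with its most negative difference in mouse 1. After quantile normalization, a common median or cyclic loess all 10 genes still lay below their mean on this array, with median deviations of -0.13, -0.16 and -0.12. The 10 deviations share this array and are not independent of each other. On the Ly6C- F4/80high array of mouse 1 only 1 of the genes lay below the mean. The median deviation there was 0.09, against -0.01 for all genes. Deviations within a fraction sum to 0 over its 3 arrays, so the shifts of mice 1 and 2 are not separate. On the remaining arrays between 4 and 6 of the genes lay below the mean of their fraction.

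**Figure D4:**
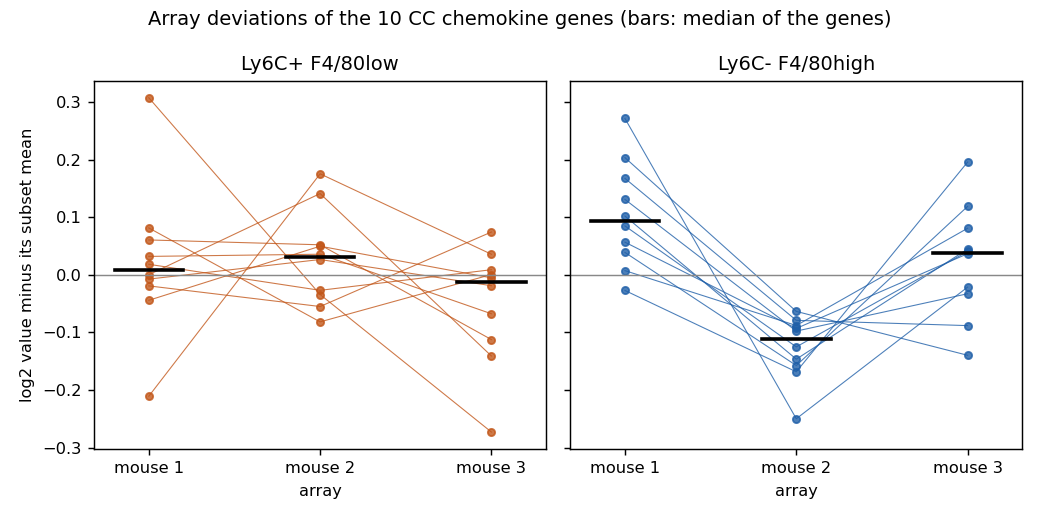
Deviation of each CC chemokine gene from its mean in that fraction, in log2 units, for each array, where thin lines join the values of one gene and thick bars mark the median of the 10 genes. The points of the Ly6C- F4/80high array of mouse 2 lie below 0, with a median of -0.11, and the medians of the other arrays lie between -0.01 and 0.09.

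Ccl8 and Ccl24, the members with at least 2-fold calls, were also compared with other genes by profile. Predicted, RIKEN, olfactory and vomeronasal genes, genes with clone or locus names, and all members were left out of this comparison. Likeness was the root mean square distance over the 6 arrays after each gene was centred on its own mean. Nearest to Ccl8 were Npl, whose enzyme breaks down sialic acid, at a distance of 0.167, the growth factor gene Igf1 at 0.175 and Serpinb6a, a protease inhibitor, at 0.184. Their differences were 3.30, 3.25 and 3.24. Near to Ccl24 were the plasminogen activator inhibitor gene Serpinb2 at 0.0819 and the receptor kinase gene Grk5 at 0.0957, which differed by -1.26 and -1.22. The same rule also named the steroid-metabolising enzyme gene Akr1c18, but every Ly6C- F4/80high array of it was under background, so no distance is given. It was at least 1.01-fold lower there. These profiles rest on 6 arrays in 2 fractions and were chosen for their likeness.

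The receptors for these chemokines were lower or not called in the Ly6C- F4/80high cells. Of 10 CC chemokine receptor genes with a probe set of their own, 6 were called, each with a lower level, and the median difference was -0.34. Ccr2, which binds Ccl2, Ccl7 and Ccl12, read 10.90, 10.85 and 10.52 in the Ly6C+ F4/80low cells and 8.96, 8.69 and 8.63 in the others, a difference of -1.998 (SE 0.12). Ccr1, which binds Ccl3, Ccl5, Ccl6 and Ccl9, read 9.56, 9.65 and 9.57 against 8.51, 8.48 and 8.72, a difference of -1.02 (SE 0.09, limma adjusted p = 1.67e-05). Neither gene had overlapping arrays. Ccr9, the receptor of gut-homing cells, had every Ly6C- F4/80high array under background, which makes it at least 1.27-fold lower (limma adjusted p = 0.000261). Ccr7, the receptor of cells that migrate to lymph nodes, differed by -0.38 (SE 0.10, limma adjusted p = 0.0153). That call was lost without mouse 2 (-0.25), without mouse 3 (-0.38), and on leaving out 1 array, either Ly6C+ F4/80low of mouse 2 (-0.29) or Ly6C- F4/80high of mouse 3 (-0.36). Ccr10, a receptor of skin- and mucosa-homing lymphocytes, differed by -0.29 (SE 0.07, limma adjusted p = 0.0102), a call lost without mouse 1 (-0.28) or mouse 3 (-0.30). Ccr8, the receptor of mouse Ccl8, had both means under background, at 4.01 ± 0.32 and 3.60 ± 0.24 (SD, n = 3). So did Ccr3, the receptor of Ccl24, and Ccr4, Ccr6 and Ccr1l1, of which Ccr6 was called (-0.30, limma adjusted p = 0.0267). The call of Ccr6 was lost in 8 of 17 alternatives, among them both quantile normalization (-0.19) and cyclic loess (-0.16), and both filters on low levels left the gene out. With the mouse as a replicate block Ccr8 (-0.40, limma adjusted p = 0.00795) and Ccr1l1 (-0.31, limma adjusted p = 0.0214) were called as well. Without mouse 3, 3 receptor genes were called in place of 6. Without the lower 50% of genes by level the count was also 3, because that filter removed called receptor genes of low level before testing.

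Atypical receptors, which bind chemokines without G-protein signalling and often clear them, had 0 calls among 6 genes (median -0.12) by limma, with 1, Ackr2, at an unadjusted p under 0.05. Ccrl2, which presents a chemoattractant on the cell surface, read 10.24, 10.43 and 10.44 against 10.30, 10.50 and 10.34, a difference of 0.01 (SE 0.09). Ackr2, a scavenger of inflammatory CC chemokines, differed by -0.20 (SE 0.08, limma adjusted p = 0.0983). Without mouse 2 there was 1 call among the 6, that of Ackr4 (-0.34, limma adjusted p = 0.0451), and Ackr2 was not called. Ackr1, Ackr3 and Ackr4 had both means under background.

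Further CC chemokine genes were low on these arrays. Of 14 genes 9 had a probe set of their own, 5 of these had both means under background, and 1 was called. That gene was Ccl20, itself under background, at -0.38 (SE 0.10, limma adjusted p = 0.0148). Its call was lost after quantile normalization (-0.29), after cyclic loess (-0.26), without mouse 1 (-0.24), without mouse 2 (-0.41) and on leaving out the array Ly6C- F4/80high of mouse 1 (-0.34). Ccl11, the eotaxin gene between Ccl7 and Ccl12, read 6.84, 6.45 and 6.70 against 6.91, 6.95 and 6.80 and was not called (0.22, SE 0.10, limma adjusted p = 0.131). Among 17 chemokine genes of the other classes limma called 4 higher and 3 lower, and the list median was -0.08. Pf4, the platelet factor gene, was higher by 1.38 (SE 0.15), and Cxcl10, an interferon-induced attractant of T cells, differed by -1.13 (SE 0.14).

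Genes that act on chemokines or on their transcripts differed in both directions. Of 17 proteases known to trim chemokines limma called 6 higher and 4 lower, and the list median was 0.18. Of the 4 lower, Dpp4 and Cpm had both means under background. Cpd, a carboxypeptidase, was higher by 1.34 (SE 0.07), Mmp14, a membrane-bound metalloprotease, by 1.16 (SE 0.10) and Mmp12, the macrophage elastase, by 1.00 (SE 0.11). The dipeptidyl peptidase gene Ctsc was lower, by -0.46 (SE 0.08). Mmp2 was also lower (-0.38), a call lost without mouse 1 (-0.35), without mouse 3 (-0.27) and on leaving out some single arrays. Of 10 regulators of mRNA decay 1 was higher, 2 lower and 7 not called (median -0.15), with 5 called after quantile normalization and 6 after cyclic loess. Zfp36l2 and Zfp36, whose proteins bind AU-rich elements and speed decay, differed by -0.63 (SE 0.07) and -0.48 (SE 0.09), and Tia1, a translation repressor, by 0.48 (SE 0.08).

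Of 30 measured signalling genes downstream of the receptors, all above background, 3 were higher, 6 lower and 21 not called (median -0.02). These 9 calls are a share near that of all genes, 33.8%, and below the 44.6% of genes above background, and without mouse 3 the number called was 5. Grk5, a kinase that desensitises receptors, differed by -1.22 (SE 0.09), Tiam1, an exchange factor for Rac, by -1.21 (SE 0.08) and the Src-family kinase gene Fgr by -1.17 (SE 0.10). The list of transcription factors of chemokine genes held 22 measured genes, with the NF-kB inhibitor gene Nfkbia and its relative Nfkbiz among them. Of the 22 genes 1 was higher, 16 lower and 5 not called (median -0.45), with 11 called without mouse 3. The higher gene was Irf8 (0.29, limma adjusted p = 0.0284). Its call was lost after quantile normalization (0.18), after cyclic loess (0.16) and on leaving out some arrays. Irf7, of the interferon response, read 10.26, 10.26 and 10.11 against 8.93, 8.98 and 8.84 and differed by -1.29 (SE 0.08). The NF-kB subunit gene Rel differed by -0.80 (SE 0.09) and Irf4, an interferon regulatory factor, by -0.67 (SE 0.12).

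**Figure D5:**
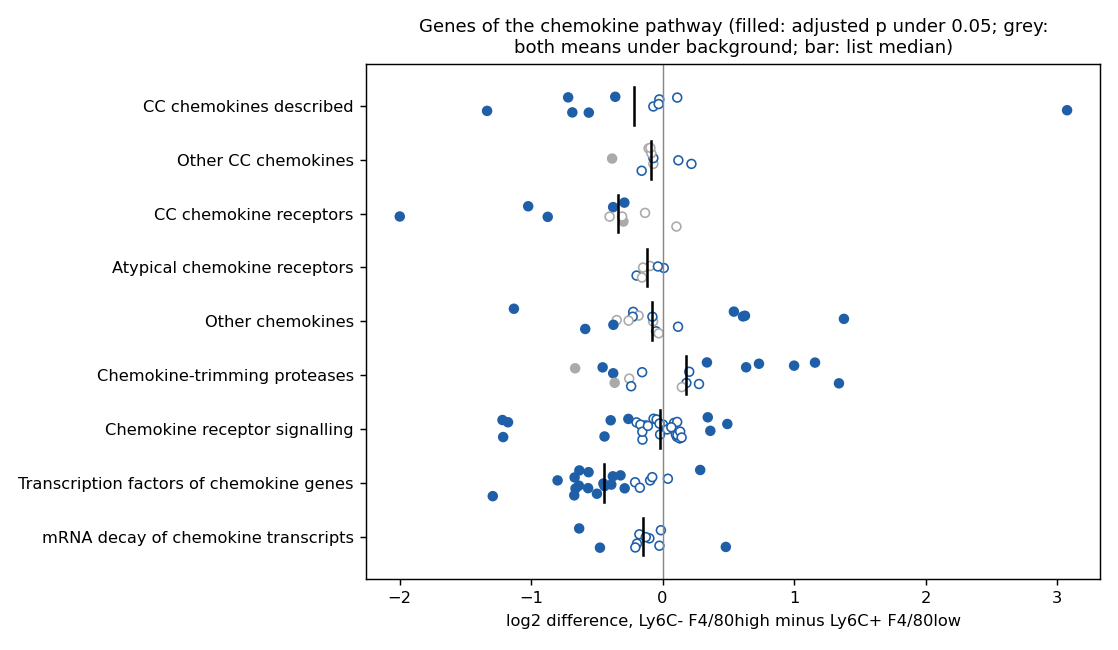
Log2 difference of every measured gene of 9 lists, the 10 CC chemokine genes first, with filled points for limma calls, grey points where both means lay under background and a bar at each list median. The medians run from -0.45 for the transcription factors to 0.18 for the proteases, and Ccl8 at 3.08 lies to the right of all other points.

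Adgre1, which encodes the sorting antigen beside Ly6C, differed by 0.73 (SE 0.07) toward the Ly6C- F4/80high fraction, the direction of the sort. Arrays of the same fraction correlated at 0.995 to 0.997 across genes and arrays of different fractions at 0.977 to 0.980, where genes are not independent replicates. All 11 measured macrophage markers were above background in both fractions. Limma called 5 with a positive difference, the sorting antigen gene Adgre1 among them, and 3 with a negative one. Of the 11 markers Mertk, a receptor for dying cells, differed by 1.57 (SE 0.08) and the complement gene C1qa by 1.55 (SE 0.08). Cd14, a co-receptor for endotoxin, differed by -0.42 (SE 0.08). The summed linear level of the 11 markers, Adgre1 included, ran from 22106 to 22741 on the Ly6C+ F4/80low arrays and from 26079 to 26704 on the others. Among markers of other cells a lower level in the Ly6C- F4/80high fraction was called for 8 of 10 endothelial genes, with 1 higher, and for 8 of 10 fibroblast genes. The summed linear level of the endothelial list ran from 827 to 924 against 595 to 638, and that of the fibroblast list from 560 to 711 against 446 to 483. Of 12 neutrophil markers 3 were lower and 7 had both means under background, Ly6g among them. The eosinophil list had 2 of 6 lower and 5 under background, and the mast cell and basophil list had 4 of 10 lower and 7 under background. The summed linear level of the mast cell and basophil list ran from 514 to 630 against 246 to 270. This sum leans on Hdc, which makes histamine and was the brightest gene of the list, with means of 8.47 and 6.09. Hdc was above background on all 6 arrays and differed by -2.38 (SE 0.14, limma adjusted p = 1.6e-06). Kit, Cma1 and Gata2 were the other lower genes, and Kit and Cma1 had both means under background. Cpa3, Mcpt4, Fcer1a, Ms4a2, Mcpt8 and Tpsb2 were not called. Dendritic cell markers were split, with 2 of 10 higher and 4 lower, and their summed linear level ran from 840 to 909 against 873 to 941. Of 7 B cell markers 1 was higher, Cd79b at 0.53 (SE 0.10, limma adjusted p = 0.00235), 1 was lower, and 5 had both means under background. The B cell sum ran from 252 to 275 against 274 to 291. Of 10 muscle markers 2 were lower, and their sum ran from 582 to 595 against 537 to 576. The part of these markers in the values of Ccl8 and of Ccl2, Ccl6, Ccl9 and Ccl24 was not tested.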

How the data were processed

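Total RNA of 6 sorted samples was read on Affymetrix arrays, with 150 ng labelled per array per the labels' protocols. The deposited values are log2 expression made by the authors with RMA, per the submitters' processing notes, and the log2 scale follows from the range of the values. For RMA the version, settings and build were not given in the sources used here. RMA compresses low signals, so differences of weak genes are understated. Of 35556 probe sets, 21789 had 1 gene symbol, 1621 several and 12146 none in the annotation given with the values. Entrez identifiers of 21698 matched RefSeq GRCm38.p6, with 0 symbols changed. RefSeq coordinates are those of that assembly and not of the probes. Each of 19938 symbols kept its probe set of highest mean. Arrays give no read depth, and their number limits the precision.

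Differences were fitted in R 4.3.3 with limma 3.58.1 (lmFit, eBayes, two-sided) over all genes, with Benjamini-Hochberg adjustment and calls at 0.05. The background level is the 95th percentile of the means of 1190 genes for olfactory or vomeronasal receptors. If a fraction had its 3 arrays under it and the other mean was above it, the fold was taken from the background level and is a bound. Calls, differences and limma adjusted p come from the values as deposited, also for genes with both means under background. The level was set after values were seen. The members and lists were chosen with earlier results of these data known. Genes were named by a rule: the 10 members, all measured receptors, of the other lists up to 3 called genes in each direction, and for members called at 2-fold the 3 nearest profiles. The text describes a part of them, and Ccl11, Ccl26 and the cell markers named were added for their place or type. Ratios within arrays were tested by exact permutation, for 6 pairs chosen after values were seen, with adjusted p also 0.1 for each. Promoters were aligned with Biopython 1.88.

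Both fractions came from the same animals, so the mouse number pairs the arrays, but no source states a paired test and the block was an alternative. Deviations of paired arrays from their fraction means correlated at 0.03, -0.08 and 0.09 across genes in mice 1, 2 and 3. Values were also rescaled by quantiles, to a common median and by cyclic loess, the lowest 25% or 50% of genes were left out, and probe sets of a gene were averaged. Further fits took the mouse as a random effect, used array weights or a trended robust prior, or left out single arrays or mice. The fit was tested on simulated data with 200 changed among 19938 genes. Recovery was 56.7% for a log2 change of 0.5, 97.0% for 1 and 100% for 2, and 9 of its 178 calls were false. In the data 33.8% of genes were called, a far larger share than was changed in the simulation. The simulated noise was independent between genes, so these rates describe that setting only.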

Additional observations from a re-analysis of the deposited data

How the results depend on the processing

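The 6 called CC chemokine genes, 1 higher and 5 lower, kept their calls and directions in all 19 alternatives, and the other 4 were called in none. Filters, probe-set averaging, the mouse terms and the trended prior could not move the differences of these genes. With the mouse as a replicate block the pairing left 6 of the 10 genes called, and 6164 of all genes. Over the analyses that left out an array or a mouse, all genes called ran from 3998 to 6887, the lowest without mouse 3, the CC receptors from 3 to 6, the atypical receptors from 0 to 1, receptor signalling from 5 to 8, the transcription factors from 11 to 17 and the further CC chemokines from 0 to 1. The filter on the lower 50% of genes removed called genes of low level before testing. It left 3 CC receptors and 0 of the further CC chemokines called. The latter count was also 0 after quantile normalization and cyclic loess, where Ccl20 was tested and lost its call. The mRNA decay list had 5 calls after quantile normalization and 6 after cyclic loess. Some uncalled genes changed sign. Leaving out arrays moved Ccl3 from -0.0766 to 0.040, Ccl7 from -0.130 to 0.00353, Ccl12 from -0.127 to 0.0550, Ccr3 from -0.00823 to 0.194, Ackr1 from -0.181 to 0.0659, Ackr4 from -0.338 to 0.00333 and Ccrl2 from -0.0557 to 0.0625. After cyclic loess Ccl3 stood at 0.000911, Ccl4 at -0.0341, Ackr1 at 0.0294, Ccrl2 at -0.0573 and Pitpnm3 at 0.0166. After quantile normalization Ccl4 stood at -0.0431, Ackr1 at 0.0148, Ccrl2 at -0.0197 and Pitpnm3 at 0.0018, and with array weights Ccrl2 at -0.0146. The cause of these changes was not tested. Of 873 values of 47 named genes beside the 10, 802 kept direction and side of the threshold, 49 lost a call, 7 gained one and 15 changed sign.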

Other observations

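Some CC chemokine genes share their probe sets and cannot be told apart on these arrays. The 4 probe sets annotated with several Ccl21 genes, whose products guide cells to lymph nodes, read between 5.55 and 6.21 on the arrays. Their differences were identical, at -0.22944, so they do not count as 4 separate measurements. The 3 probe sets shared by Ccl27 genes, of skin-homing T cells, read between 5.86 and 6.38 and differed by 0.04 to 0.06.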
